A study of Arabidopsis thaliana with 18 samples.

Results

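The comparison set all 6 arrays of plants harvested 52 h after treatment against all 6 arrays of plants harvested 4 h after it, which is 12 of the 18 arrays of the series. Each array was an ATH1 GeneChip, an oligonucleotide array that reads most Arabidopsis thaliana genes with 1 probe set each, and held RNA of Kin-0, a natural strain of the species. At 52 h and at 4 h, 3 arrays came from plants given 0.30 mM salicylic acid (SA) in 0.02% silwet, and 3 from plants given 0.02% silwet alone. SA is a defence hormone of plants, and silwet is a surfactant that spreads a solution over plant surfaces, and every plant at both times had received it. Arrays were chosen by the time in their labels, the change was averaged over SA and silwet plants, and the replicate number of the label entered the fit as a factor. The remaining 6 arrays, of 28 h, are given beside the results only. The labels name no tissue, plant age or hour of the day, and call the 3 arrays of a group biological replicates without saying what arrays of 1 number shared. Untreated plants were not analysed here, so the arrays compare plants 48 h apart after treatment and hold no level from before it.

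Plants that are touched, wetted or exposed to chemicals switch on genes of calcium signalling, defence and detoxification, and many of these messages are short-lived. Among the early genes is a nuclear set that answers to disturbed mitochondria and is driven by membrane-bound NAC transcription factors. Growing leaves are marked by genes such as the expansins, which loosen the cell wall, and by genes that build and maintain chloroplasts.

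The deposited values were MAS5 signals, linear intensities with each array scaled to 1 level. Of 22810 probe sets, 15212 were tested, those above the 40th percentile of an array on 3 or more of the 18 arrays. A signal under that percentile of its own array is called dim. Only 8305 of the tested probe sets (54.6%) carried 1 gene in the annotation used here, and with 6 arrays per time their number limits the precision of every value. The log2 ratio of 3' over 5' control probe sets, a measure of RNA degradation, averaged 0.98 at 52 h (0.80 to 1.42) and 1.3 at 4 h (0.90 to 2.09, the highest on SA 4 h replicate 2). Its part in the results was not tested beyond the fits with it as a covariate and without that array, whose counts stand beside several of the gene groups they move. Summed signals of 13 nuclear photosynthesis genes were 32510 to 39220 at 52 h and 24910 to 33550 at 4 h, the markers of green tissue read at both times. PYK10, a beta-glucosidase of roots and the 1 tested root marker of 27 listed, had 35.5 to 105 at 52 h and 58.5 to 284 at 4 h (adjusted p = 0.0718, limma). It passed in limma's fit without SA 4 h replicate 2 (-1.03, adjusted p = 0.0341) and without silwet 52 h replicate 2 (adjusted p = 0.0423). In whole tissue, fewer cells of a type and less RNA per cell cannot be told apart.

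Plants at 52 h had much lower signals than plants at 4 h for genes of mitochondrial stress, touch and calcium, and defence, and moderately higher signals for genes of wall growth and part of the chloroplast genes. Few of the chloroplast genes passed in silwet plants alone. In limma's fit 5043 of 15212 probe sets passed at an adjusted p under 0.05 (33.2%), 2717 higher (17.9%) and 2326 lower (15.3%) at 52 h. Every count of list or family members below is to be read against these shares, 17.9% higher and 15.3% lower. The larger changes went mostly down. Of the 1459 probe sets (9.59%) that passed and changed at least 2-fold, 505 were higher and 954 lower, and at 8-fold or more there were 4 higher and 66 lower. Over all those tested the median change was 0.08 on the log2 scale, and the median standard error was 0.17. In 1243 probe sets (8.17%), 423 higher and 820 lower, no array of 52 h overlapped an array of 4 h. All 6 pairs of a treatment and a replicate number had 1 sign in 70.1% of the called probe sets and in 27.9% of those tested. With no replicate block the count was 3035, and with the 3' over 5' ratio as a covariate it was 3643.

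**Figure D1:**
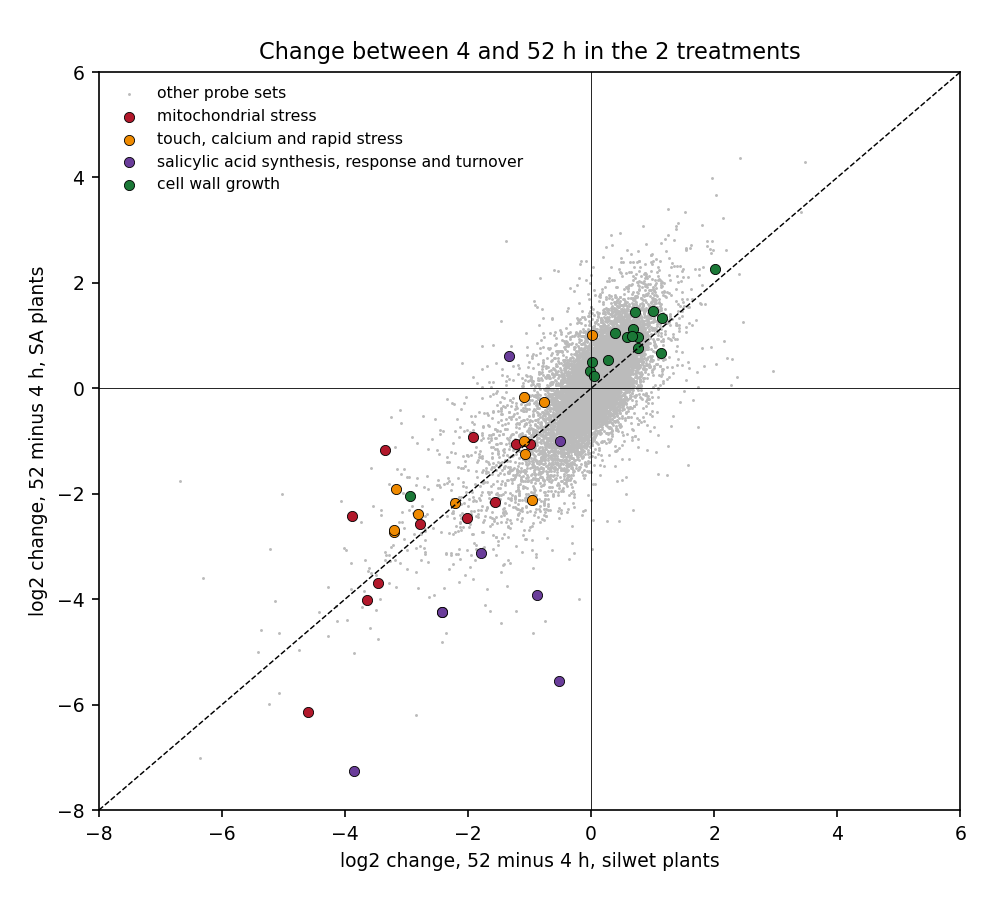
Each point is 1 of 15212 probe sets, with its log2 change from 4 to 52 h in silwet plants (horizontal) and in SA plants (vertical). Coloured points are members of 4 gene lists (WRKY53, which is in 2 of them, has the colour of the salicylic acid list), and the dashed line marks equal change in both treatments. The 11 members of the mitochondrial stress list lie below 0 on both axes.

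All 11 tested members of the mitochondrial stress list were lower at 52 h, with a median log2 change of -2.26 against 0.08 for all probe sets. The list holds genes known to rise when mitochondrial electron transport is blocked, and 12 of its 44 entries had a named probe set. It and the other lists were chosen with earlier results of these data known, so their counts and medians are descriptions. NDB2, an alternative NADH dehydrogenase of the inner mitochondrial membrane, had 111, 144 and 154 in SA plants and 119.5, 146 and 149 in silwet plants at 52 h. At 4 h it had 519, 567.7 and 740.5 in SA plants and 326, 402 and 513 in silwet plants. Every array of 52 h was below every array of 4 h. The log2 change was -1.86 (SE 0.13, adjusted p = 1.69e-06, limma).

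AT2G41730 had 105 to 178 at 52 h and 1366 to 2387 at 4 h, a log2 change of -3.58 (SE 0.17), but its probe set is of a kind that can also bind related transcripts, so its identity is uncertain. AT5G43450 had 132 to 213 at 52 h and 936 to 1261 at 4 h, a log2 change of -2.67 (SE 0.13). Neither had arrays that overlapped between the times. AT5G51440 had 1.31 to 15.6 at 52 h, dim on all 6 arrays, and 194 to 436 at 4 h, and was at least 17.9-fold lower. AT2G21640 changed by -3.83 (SE 0.24), with a median of 18.6 at 52 h, where 3 arrays were dim, and a median of 241 at 4 h, without overlap. MSRB9, a methionine sulfoxide reductase that repairs oxidised proteins, had 36.1 to 113 at 52 h and 109 to 656 at 4 h, with an overlap, and changed by -2.26 (SE 0.20). GSTU25, a glutathione transferase of the tau class, changed by -3.15 (SE 0.24), with 5 arrays of 52 h dim.

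The other members of the list were AT2G04050 (-2.24), AT5G09570 (-1.43), AT2G04070 (-1.14) and AT1G05060 (-1.02). In SA plants alone all 11 passed, and in silwet plants alone 10. None lost its call with no replicate block, and the count stayed at 11 without any 1 array and at 11 with the 3' over 5' ratio as a covariate. Of the other alternative NADH dehydrogenases, NDB1 (-0.15), NDC1 (0.04) and NDB3 (-0.80) did not pass.

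**Figure D2:**
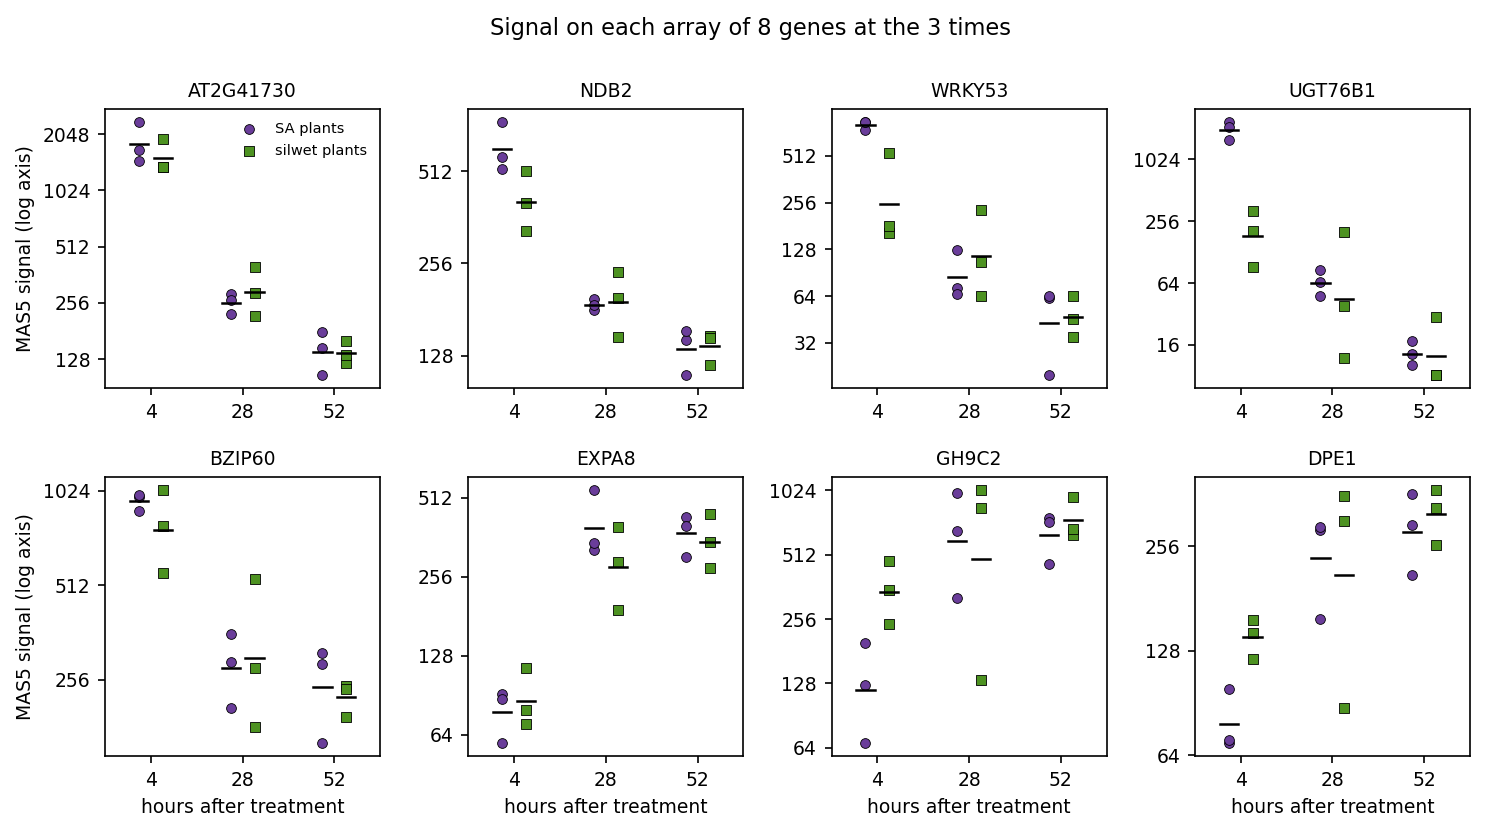
Signals (log axis) of 8 genes on each of the 18 arrays at 4, 28 and 52 h, with circles for SA plants, squares for silwet plants and a bar at the geometric mean of each group. In AT2G41730, NDB2, WRKY53, UGT76B1 and BZIP60 every array of 52 h lies below every array of 4 h, and in EXPA8 and DPE1 every array of 52 h lies above.

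Genes of touch, calcium and rapid stress were lower as well. Of 12 tested members, 11 were lower (91.7%, beside 15.3% of all probe sets) and none higher (median -1.87). WRKY53, a transcription factor of defence and leaf senescence, had 19.8, 62.2 and 64.5 in SA plants and 35.1, 45.4 and 64.6 in silwet plants at 52 h. At 4 h it had 753, 846 and 846 in SA plants and 162, 181 and 536 in silwet plants. The times did not overlap, and at 4 h the SA arrays were the brighter ones. The log2 change was -3.33 (SE 0.27, adjusted p = 3.8e-06, limma).

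STZ, a zinc finger repressor of the stress response, had 35.4 to 184 at 52 h and 242 to 1255 at 4 h, a log2 change of -2.2 (SE 0.33) without overlap. WRKY6 (-1.16) and WRKY22 (-0.62) passed too, but not with no replicate block, and nor did WRKY47 (-0.67), which is not on the list. WRKY22 also lost its call without some single array. EXO, a gene of cell expansion that brassinosteroids promote, was the only tested member of the list that did not pass (0.51, adjusted p = 0.192). The list's count of lower members was 8 with no replicate block, and 9 with the 3' over 5' ratio as a covariate or without SA 4 h replicate 2.

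Calmodulin-like proteins, which bind calcium and pass on its signal, were lower in 6 of 7 tested members (median -1.39) and higher in none. CML37 had 4.41 to 19.4 at 52 h, dim on 5 arrays, and 64.8 to 108 at 4 h, a log2 change of -2.97 (SE 0.30). CML38 had 13.4 to 62.1 at 52 h and 89.5 to 297 at 4 h, a log2 change of -2.54 (SE 0.29). The times overlapped in neither. AT1G76640, listed as CML39, changed by -4.22 on average (SE 0.90), by -6.68 in silwet plants and by -1.76 in SA plants, where it did not pass (adjusted p = 0.335). The 8 matched genes of the family summed to at most 897 on an array of 4 h. A silwet change of that size therefore ends below the dim level, and its size is imprecise. The difference between treatments was called in 0 members of the family. CML43 (-1.39) and CML42 (-1.05) passed, and CML30 (-0.32) did not pass. CML41 (-0.51) passed, but lost its call with no replicate block and in 8 of 12 fits that left out 1 array.

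PUB22, PUB23 and PUB24 are U-box ubiquitin ligases that damp immune signalling. PUB23 had 11.6 to 39.5 at 52 h and 54.3 to 468 at 4 h, a log2 change of -2.6 (SE 0.23), and PUB24 changed by -1.54 (SE 0.15). PUB22, dim on all arrays of 52 h, was at least 1.71-fold lower. With PUB43 (-0.45, lost with no replicate block), 4 of 8 U-box ligases were lower and none higher, in a family grouped after the values had been seen.

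**Figure D3:**
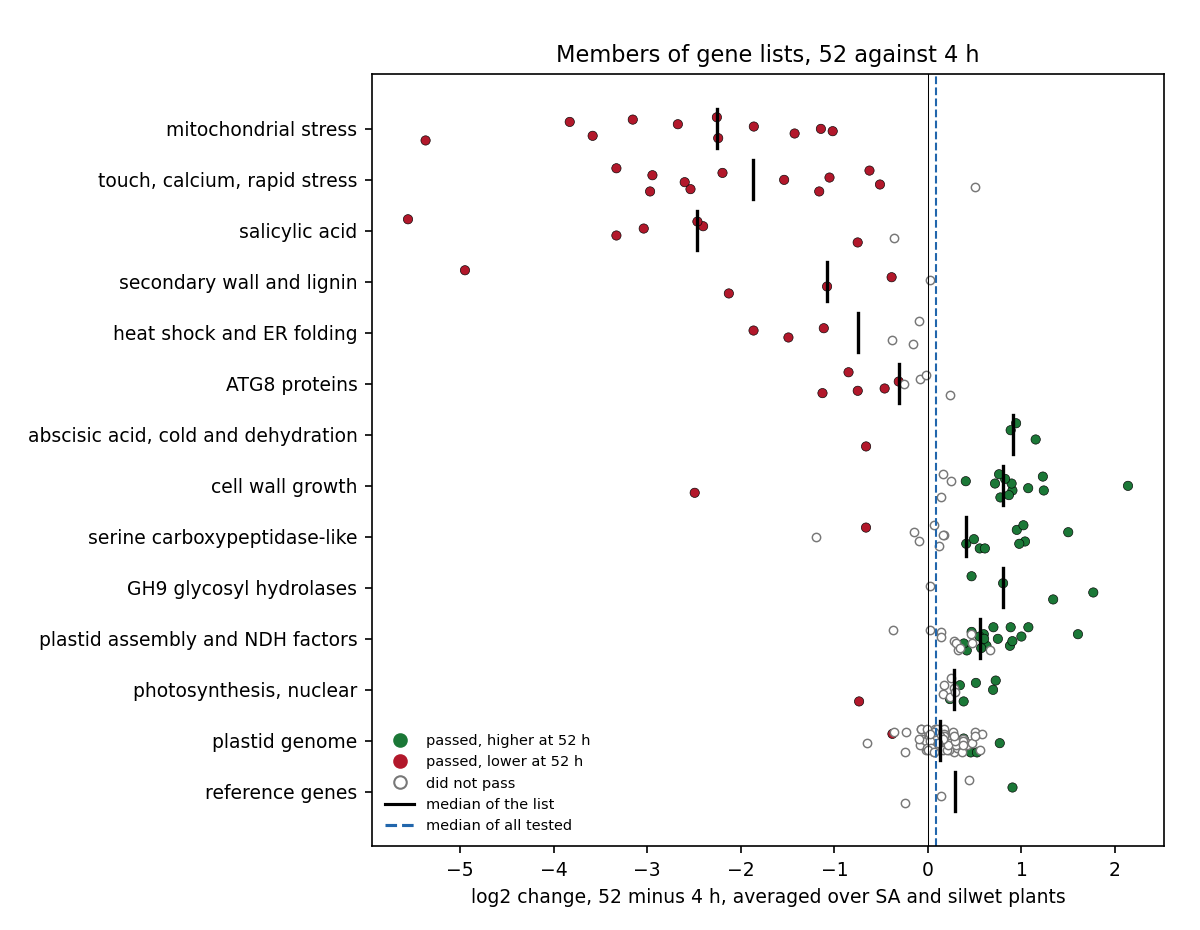
Log2 change from 4 to 52 h, averaged over SA and silwet plants, of each tested member of 14 gene lists, with filled points for members past an adjusted p under 0.05 and open points for the others. Black bars are list medians, and the blue dashed line is the median of all 15212 probe sets (0.08). Mitochondrial stress members run from -5.37 to -1.02, and cell wall growth members lie above 0 except XTH18.

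In the list of salicylic acid synthesis, response and turnover, 6 of 7 tested members were lower at 52 h and none higher, with a median of -3.93 in SA plants and -1.34 in silwet plants. In SA plants alone 6 passed as lower and in silwet plants alone 3, and the difference between treatments was called in 3. UGT76B1, a glucosyltransferase that inactivates SA and related defence compounds, had 10.12, 12.9 and 17.3 in SA plants and 8.07, 8.21 and 29.7 in silwet plants at 52 h. At 4 h it had 1598, 2116 and 2378 in SA plants and 91.8, 205 and 322.2 in silwet plants. The times did not overlap, and 5 of the 6 arrays of 52 h were dim. Its averaged log2 change was -5.56 (SE 0.23, adjusted p = 6.98e-08, limma).

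GRX480, a glutaredoxin that binds TGA transcription factors, had 44.3 to 126 at 52 h and 188 to 856 at 4 h, a log2 change of -2.46 (SE 0.22) that passed in both treatments. SAG101, a lipase-like partner of the immune regulator EDS1, changed by -0.75. BSMT1, which methylates benzoic and salicylic acid, changed by -0.37 and did not pass (adjusted p = 0.646). WRKY53 is on this list too, and AT3G28510 and AT5G03350 are given with the treatments. AT3G13610, with the synonym F6'H1, an oxygenase of scopoletin synthesis, had 19.0 to 66.5 at 52 h and 62.9 to 851 at 4 h, a log2 change of -2.56 (SE 0.23) with an overlap.

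To several of the genes with the largest decreases the annotation gives only a locus. AT1G74870 had 0.870 to 2.61 at 52 h and 67.1 to 242 at 4 h, and was at least 7.54-fold lower. AT2G20720 (at least 9.08-fold), AT1G49000 (at least 7.05-fold) and AT2G23270 (at least 4.18-fold) were likewise dim on all arrays of 52 h. AT2G22880 changed by -4.86 (SE 0.77), with 5 arrays of 52 h dim.

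AT1G19020 and AT1G03660 were above the dim level at both times. AT1G19020 had 50.2 to 219 at 52 h and 732 to 1582 at 4 h, a log2 change of -3.54 (SE 0.29). AT1G03660 had 28.9 to 37.4 at 52 h and 249.5 to 561 at 4 h, a log2 change of -3.47 (SE 0.17). AT1G57650 (-3.61, SE 0.30) and AT1G10585 (-3.27, SE 0.41) were lower too, and in none of the 4 did the times overlap. Among probe sets with no gene here, the one numbered 254059_at was at least 4.45-fold lower, and 263378_at changed by -4.85 (SE 0.80). At 4 h 263378_at had 4.5 on silwet 4 h replicate 1 and 17.8 to 31 on the other arrays, near the dim level. A decrease of that size from there ends below the dim level, so its size is imprecise.

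UDP-glycosyltransferases attach sugars to hormones, defence compounds and foreign chemicals. Of 32 tested members 5 were higher and 11 lower (median -0.17), and the higher share was below the 17.9% of all probe sets and the lower above their 15.3%. UGT73C1 had 0.614 to 8.37 at 52 h and 26.3 to 65.2 at 4 h, and was at least 2.09-fold lower. UGT73B4 was at least 1.3-fold lower, and UGT73D1 changed by -2.92 (SE 0.29), UGT87A2 by -1.26 (SE 0.16) and UGT73B5 by -1.0. UGT71B6, which glucosylates abscisic acid, changed by -1.64 (SE 0.27).

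Of the higher members, UGT85A5 had 45.3 to 65.1 at 52 h and 10.6 to 44.8 at 4 h, where 3 arrays were dim, a log2 change of 1.5 (SE 0.26). UGT85A4 changed by 1.3 (SE 0.26), and the times overlapped in neither. UGT88A1 (0.56), SGT (0.52) and UGT80B1 (0.40) lost their calls with no replicate block and without some single array. UGT76E12 (-1.6) missed the threshold (adjusted p = 0.0913). The family's counts were 2 higher and 9 lower with no replicate block, and 2 and 9 with the 3' over 5' ratio as a covariate.

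**Figure D4:**
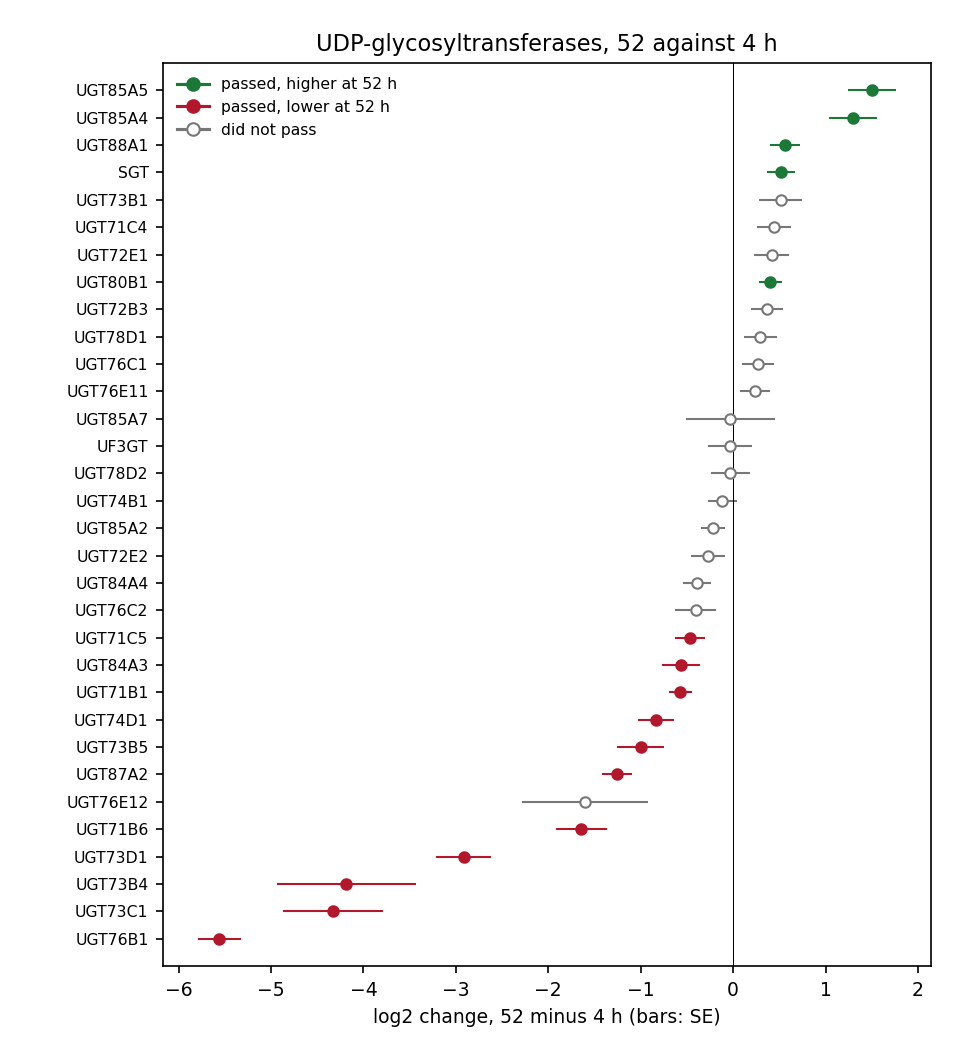
Log2 change from 4 to 52 h of 32 UDP-glycosyltransferases, averaged over SA and silwet plants, with bars of 1 standard error and filled points where the adjusted p was under 0.05. The changes run from -5.56 in UGT76B1 to 1.5 in UGT85A5.

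Glutathione transferases, which detoxify by adding glutathione, had 3 of 9 tested members higher (33.3%) and 2 lower (22.2%), beside 17.9% and 15.3% of all probe sets. GSTU25 is given above, and GSTU22, dim at 52 h, was at least 1.73-fold lower. GSTU18 (0.81) was higher, as were GSTU20 (0.46) and GSTL3 (0.41), which lost their calls with no replicate block and without some single array. The higher count was 1 with the 3' over 5' ratio as a covariate. Among 13 cytochromes P450, CYP71B5 changed by 1.03 and CYP71B23 by -1.69 (SE 0.21), with 3 calls higher and 3 lower, beside 17.9% and 15.3% of all probe sets, and 2 were lower with no replicate block.

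In the list of secondary wall and lignin, 4 of 5 tested members were lower and none higher. CCR2, a cinnamoyl-CoA reductase, had 0.519 to 11.2 at 52 h and 18.25 to 85.8 at 4 h, and was at least 2.79-fold lower. CYP84A4 was at least 2.07-fold lower. CCOAMT (-1.08) and HCT (-0.39), enzymes of the monolignol path, lost their calls with no replicate block, and HCT also without some single array. BGLU31, a beta-glucosidase, was at least 2.33-fold lower. Of 4 jacalin-related lectins, grouped after the values had been seen, JAL23 (-1.9), JAL33 (-1.01) and JAL34 (-0.75) were lower.

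Genes of protein folding in the endoplasmic reticulum included clear decreases. BZIP60, a transcription factor of the unfolded protein response, had 161, 288 and 311 in SA plants and 196, 239.8 and 245 in silwet plants at 52 h. At 4 h it had 879, 974 and 994 in SA plants and 558, 788 and 1029 in silwet plants. The times did not overlap, and the log2 change was -1.96 in SA plants and -1.77 in silwet plants, or -1.86 on average (SE 0.16, adjusted p = 5.18e-06, limma). ATERDJ3B, a co-chaperone, had 259.8 to 421 at 52 h and 630.2 to 1793 at 4 h, a log2 change of -1.49 (SE 0.12) without overlap. AT5G48570, a peptidyl-prolyl isomerase with the synonym ROF2, was at least 1.25-fold lower and lost its call without 1 or more of the single arrays. CRT1b (-0.38), BZIP17 (-0.16) and BZIP28 (-0.09) did not pass. Hsp70-2, a chaperone, had 58.5 to 119.7 at 52 h and 173 to 650.5 at 4 h, a log2 change of -1.97 (SE 0.23).

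Further families of protein turnover were grouped after their values had been seen. Of 7 proteins that clear misfolded proteins from the endoplasmic reticulum or assist in folding there, 5 were lower, ATERDJ3B, OS9 (-0.75), DER1 (-0.69), ATERDJ2B (-0.62) and DER2.1 (-0.52). ATG8 proteins, which build autophagosomes, were lower in 5 of 9 and higher in none, in 2 with no replicate block, and in 3 with the 3' over 5' ratio as a covariate or without SA 4 h replicate 2. ATG8E had 93.8 to 153 at 52 h and 182 to 352 at 4 h, a log2 change of -1.13 (SE 0.17). VPS sorting proteins of the endosome were higher in 1 and lower in 5 of 9, with VPS60.1 changing by -1.27 and VPS20.1 by -0.90. The senescence list, which shares WRKY53, WRKY6, SAG101 and ATG8 genes with those above, had 7 of 10 lower, 3 with no replicate block and 5 with the ratio as a covariate.

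Few genes of other hormones passed. JMT, which methylates jasmonic acid, was dim on all arrays of 52 h and at least 2.03-fold lower, while OPCL1 (-0.11), MYC3 (-0.27), MYC4 (0.12), PDF1.2 (0.07) and THI2.1 (-0.76) did not pass. GH3.3, which conjugates auxin to amino acids, had 26.4 to 135 at 52 h and 45.8 to 817 at 4 h, a log2 change of -2.18 (SE 0.25) with an overlap. IAA29, an auxin-responsive repressor, changed by 0.63, and WES1 (-0.44), GH3.17 (0.07) and YUC2 (0.14) did not pass. Neither of 2 ethylene genes passed, and none of 5 genes of gibberellin, brassinosteroid and cytokinin did. HYH, a light-response transcription factor related to HY5, was at least 1.91-fold lower.

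Genes of cell wall growth were higher at 52 h. Of 16 tested members of that list, 12 were higher and 1 lower (median 0.80 against 0.08 for all probe sets). EXPA8, an expansin, had 305, 400.1 and 434 in SA plants and 276, 346 and 444 in silwet plants at 52 h. At 4 h it had 59.5, 87.8 and 91.4 in SA plants and 70.5, 79.4 and 115 in silwet plants. Every array of 52 h was above every array of 4 h. The log2 change was 2.26 in SA plants and 2.01 in silwet plants, or 2.14 on average (SE 0.18, adjusted p = 5.18e-06, limma).

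Of 10 tested expansins 7 were higher (70%, beside 17.9% of all probe sets) and none lower. None of the 7 lost its call with no replicate block. EXPB1 had 50.1 to 84.4 at 52 h and 19.1 to 37.3 at 4 h, a log2 change of 1.24 (SE 0.19). EXPB3 had 97.8 to 149 at 52 h and 34.4 to 68.8 at 4 h, a log2 change of 1.23 (SE 0.15). In both, the times did not overlap. EXLA2, dim on all arrays of 4 h and 3 of 52 h, was at least 1.03-fold higher, and EXPA15 (0.76), EXLA1 (0.76) and EXPA4 (0.72) passed. EXPA16 (0.35), EXPA9 (0.49) and EXLB1 (0.65) did not.

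Tubulins, which form the microtubules that guide cellulose deposition, were higher in 5 and lower in 1 of 7 tested members. These were 71.4% and 14.3%, beside 17.9% and 15.3% of all probe sets. TUB1 had 99.98 to 134 at 52 h and 42.7 to 84.4 at 4 h, a log2 change of 1.07 (SE 0.14) without overlap. TUB6 (0.90), TUB5 (0.82), TUA6 (0.77) and TUB7 (0.65) were higher, and TUA1 (-0.55) was lower, but not with no replicate block. COB, which orients cellulose microfibrils, changed by 0.40 and CSLC5, of a family that makes the xyloglucan backbone, by 0.83. Xyloglucan endotransglucosylases, which cut and rejoin xyloglucan, went both ways. XTH16 was higher (0.87), XTH18 was lower (-2.49, SE 0.41, with 5 arrays of 52 h dim), and XTH32 (0.25) and EXGT-A3 (0.14) did not pass.

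Other enzymes of the wall and the secretory path were grouped after their values had been seen. Of 5 tested glycosyl hydrolases of family 9, the plant cellulases, 4 were higher. GH9C2 had 465.5 to 953 at 52 h and 67.1 to 477 at 4 h, with an overlap, a log2 change of 1.77 (SE 0.19). GH9B13 had 55.9 to 136 at 52 h and 19.7 to 43.6 at 4 h, without one, a log2 change of 1.34 (SE 0.17).

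Serine carboxypeptidase-like proteins, a family of hydrolases and acyltransferases, had 9 of 17 members higher and 1 lower. SCPL34 had 95.6 to 161 at 52 h and 27.3 to 83.1 at 4 h, a log2 change of 1.5 (SE 0.13) without overlap, and scpl35 (1.04) and scpl50 (1.02) were higher. Trichome birefringence-like proteins, many of which acetylate wall polymers, had 4 of 13 higher and 2 lower, 2 higher and 1 lower with no replicate block, and 0 higher without replicate 3 in all groups. The lower share was near the 15.3% of all probe sets, and TBL37 changed by -2.12 (SE 0.25).

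The genes with the largest increases were mostly loci without a symbol. AT1G67750 had 117 to 164 at 52 h and 11.2 to 49.7 at 4 h, a log2 change of 2.44 (SE 0.16, adjusted p = 1.3e-06, limma). BZIP61, a leucine zipper transcription factor, had 27.3 to 91.3 at 52 h and 0.746 to 18.6 at 4 h, dim on all 6 arrays of 4 h, and was at least 2.64-fold higher. AT5G20740 was at least 1.34-fold higher.

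AT3G17640 (2.2), AT1G10640 (2.1), AT4G28780 (1.95), AT1G20030 (1.95), AT3G55760 (1.91) and AT1G22330 (1.88) did not overlap between the times. AT1G09750 (2.07), AT4G12490 (2.01), AT2G10940 (1.84) and AT1G72230 (2.33) overlapped. AT1G31690 (2.06) overlapped as well and missed the threshold with no replicate block (adjusted p = 0.0509). The unnamed 260221_at had 292 to 629 at 52 h and 13.5 to 54.2 at 4 h, a log2 change of 3.88 (SE 0.26), and 245627_at changed by 3.4 (SE 0.47).

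Part of the chloroplast genes were moderately higher. Of 13 tested nuclear genes of photosynthesis, 6 were higher (46.2%) and 1 lower (7.69%), beside 17.9% and 15.3% of all probe sets. The median was 0.28, and 3 were higher with no replicate block or with quantile normalization. In SA plants alone 5 were higher and in silwet plants alone 0, and the difference between treatments was called in 0. PRK, phosphoribulokinase of the Calvin cycle, had 2428 to 2794 at 52 h and 1539 to 2305 at 4 h, a log2 change of 0.51 (SE 0.08) without overlap. PORB, which makes chlorophyllide in the light, had 2165 to 3369 at 52 h and 992 to 2361 at 4 h, a log2 change of 0.72 (SE 0.10) with one. CHLM (0.70) and CHLI2 (0.83), enzymes of the same path, were higher. In a tetrapyrrole family grouped after the values had been seen these were 3 of 7 with PORB, and HEMA2 (-0.19), HEMB1 (-0.32), HEME1 (0.39) and HEME2 (0.45) did not pass. In SA plants alone 3 of the 7 passed, and in silwet plants alone 0 did. RCA (0.38), PSBY (0.34) and ATPC1 (0.24) passed neither with no replicate block nor with quantile normalization. LHCB4.3, a minor antenna protein, was lower (-0.74), while LHCB4.1 (0.24) and LHCB4.2 (0.29) did not pass.

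Among 27 factors that assemble photosystems, process plastid RNA or belong to the chloroplast NDH complex, grouped after the values had been seen, 16 were higher and none lower (median 0.55). The higher share was 59.3%, beside 17.9% of all probe sets. In SA plants alone 12 were higher and in silwet plants alone 1, and the difference between treatments was called in 0. NdhL had 539.7 to 898 at 52 h and 243 to 580.2 at 4 h, a log2 change of 0.90 (SE 0.12). CRR28, an RNA editing factor, changed by 1.6 (SE 0.37), Cpn60beta2, a chaperonin subunit, by 1.07, and CRR42 by 1.0. The count over both treatments was 5 with no replicate block, when Cpn60beta2 and CRR42 were among those lost. It was 8 with the 3' over 5' ratio as a covariate or without SA 4 h replicate 2. Of 69 transcripts of the plastid genome itself, 4 were higher and 1 lower (median 0.13), a share below that of all probe sets (33.2%). They were psbN (0.77), psbH (0.52), psbE (0.46) and rpl33 (0.38), and the lower rps19 (-0.38). Each lost its call with no replicate block and without some single array. With the 3' over 5' ratio as a covariate 1 was higher.

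Genes of cold and dehydration split. COR15B had 1451 to 2187 at 52 h and 458 to 1812 at 4 h, a log2 change of 1.15 (SE 0.18), and COR15A, like it a protein that protects chloroplast membranes, changed by 0.94. COR47, a dehydrin, changed by 0.88 (SE 0.15). All 3 overlapped between the times, none passed in silwet plants alone, and COR15A missed the threshold with no replicate block (adjusted p = 0.116). LTI30, another dehydrin, was lower (-0.66), but not with no replicate block.

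DPE1, a disproportionating enzyme of starch breakdown, had 212 to 372.3 at 52 h and 69.3 to 158 at 4 h, a log2 change of 1.51 (SE 0.13) without overlap. In its list of sugar starvation and starch 2 of 12 tested members were higher (16.7%), near the 17.9% of all probe sets, and none lower. GI, a clock protein that also promotes flowering, changed by 1.11 (SE 0.27), but missed the threshold with no replicate block (adjusted p = 0.141), and COR27 (0.24) and FIO1 (0.13) of the clock list did not pass. None of 6 genes of flowering and age and none of 4 of flavonoids passed. In the cell cycle list 1 of 7 was higher (14.3%), PRL, a subunit of the replicative helicase (0.95), a share below the 17.9% of all probe sets.

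STOMAGEN, a mesophyll peptide that promotes stomata, had 163 to 328 at 52 h and 67.8 to 159 at 4 h, a log2 change of 0.88 (SE 0.14) without overlap. SPK1, a regulator of trichome shape (0.87), and PHV, a leaf polarity gene (0.99), were higher, and FMA (0.15), TRY (-0.67), SIM (-0.33) and SWEET11 (-0.09) did not pass. Summed signals of the guard cell and stomatal lineage list were 212 to 389 at 52 h and 120.2 to 229.8 at 4 h. STOMAGEN, of the mesophyll, made up most of that sum, and the lineage genes MUTE and SPCH were not tested. Summed trichome markers were 90.2 to 124 at 52 h and 85.0 to 133 at 4 h. Summed vascular markers were 773 to 1080 at 52 h and 789 to 1157 at 4 h. Their part in the results was not tested. Of the reference genes GAPC2 (0.14), PEX4 (-0.25) and AT2G28390 (0.44) did not pass, and TUB6, a tubulin, did.

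Both treatments took part in the change, and among called probe sets its estimate was mostly larger in SA plants. In SA plants 4375 probe sets passed (28.8%), 2338 higher (15.4%) and 2037 lower (13.4%). In silwet plants 1019 passed (6.7%), 237 higher (1.56%) and 782 lower (5.14%). Of the 5043 called over both treatments, 4987 had the same sign in each, and in 4207 (83.4%) the estimated change was larger in SA plants. The same share over all tested probe sets was not taken. Arrays also differed more within the SA groups, with a median log2 standard deviation of 0.38 at both times. In silwet plants it was 0.22 at 52 h and 0.32 at 4 h, and its part in that share was not tested. The difference itself passed for 38 probe sets (0.25%), 13 more positive (0.0855%) and 25 more negative (0.164%) in SA plants. At an unadjusted p under 0.05 there were 1821, where 761 would fall by chance. With no replicate block the counts were 2445 in SA plants, 317 in silwet plants and 3 for the difference. The SA count was 2779 without SA 52 h replicate 2, and the silwet count was 665 and 530 without silwet 52 h replicates 2 and 3, and 461 and 416 without silwet 4 h replicates 2 and 3.

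AT3G28510 had 1.44, 3.88 and 12.5 in SA plants at 52 h and 141, 191 and 266 in SA plants at 4 h. In silwet plants it had 4.80, 15.6 and 19.6 at 52 h and 11.99, 14.2 and 25.8 at 4 h. The time effect in SA plants minus that in silwet plants was -5.02 (SE 0.61, adjusted p = 0.00911, limma). Every SA array of 52 h and most silwet arrays were dim for AT3G28510, so the size of that difference is imprecise. AT5G03350 changed by -3.93 in SA plants and by -0.88 in silwet plants, where it did not pass (adjusted p = 0.103). The change was -7.25 in SA plants and -3.86 in silwet plants for UGT76B1, -3.2 in SA and -0.89 in silwet plants for AT4G32870, -3.15 in SA and -0.90 in silwet plants for AT3G29240, and -2.22 in SA and -0.77 in silwet plants for ATERDJ3B. In each of these the decrease was the larger in SA plants.

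MSRB5, a methionine sulfoxide reductase, went the other way. It had 228, 318 and 545 in SA plants at 52 h and 78.9, 91.1 and 146 in SA plants at 4 h, a change of 1.74, and 215, 249 and 396 in silwet plants at 52 h and 179, 196 and 459 in silwet plants at 4 h, a change of 0.13. The difference was 1.61 (adjusted p = 0.03). AT5G67150 changed by 1.7 in SA plants and -0.04 in silwet plants, AT1G78020 by 2.21 in SA and 0.65 in silwet plants, and AT2G43530 by 0.58 in SA and -0.59 in silwet plants. With no replicate block 3 probe sets were called in all, and without SA 4 h replicate 2 only 1, and in either case none of the 9 genes given above besides ATERDJ3B passed. MSRB9 (difference 2.18, adjusted p = 0.0521) and GH3.3 (difference -2.46, adjusted p = 0.069) missed the threshold.

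**Figure D5:**
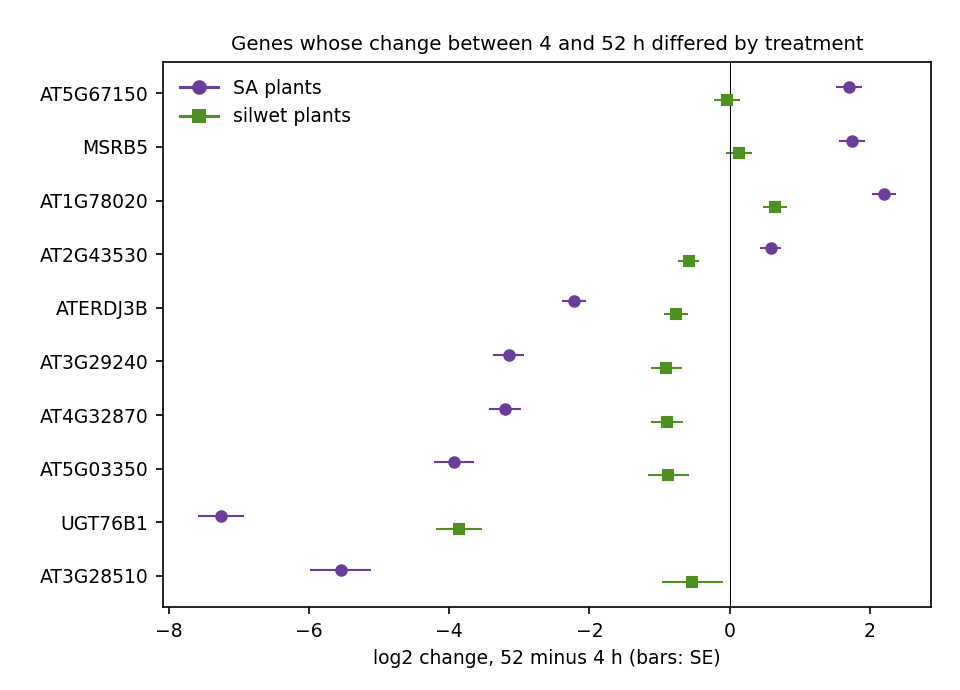
Log2 change from 4 to 52 h in SA plants and in silwet plants of the 9 genes and ATERDJ3B, all of which passed for the difference, with bars of 1 standard error. In the 6 genes with a negative difference the SA change is the more negative, from -7.25 in UGT76B1 to -2.22 in ATERDJ3B.

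In most called probe sets the 28 h arrays stood nearer to those of 52 h than to those of 4 h. Their mean was closer to 52 h in 4251 (84.3%) of the called probe sets, and in 1327 (91%) of those with at least 2-fold change, a description in which the arrays of 4 and 52 h also chose the probe sets. The share over all tested probe sets was not taken. At 28 h NDB2 had 148 to 240.4, WRKY53 had 64.0 to 229.5, EXPA8 had 190.5 to 548 and DPE1 had 87.6 to 357. Between 52 and 28 h limma called 2 probe sets (0.0131%), both lower at 52 h and 0 higher, and 1451 had an unadjusted p under 0.05. AT1G03660, whose signal at 4 h was 249.5 to 561, stood at 69.0 to 90.98 at 28 h and at 28.9 to 37.4 at 52 h, with a log2 change of -1.18 (SE 0.16, adjusted p = 0.0189) between 28 and 52 h. AT5G09570, of the mitochondrial stress list, had 46.4 to 209 at 4 h, then 69.9 to 149.5 at 28 h, then 29.1 to 58.7 at 52 h, with a log2 change of -1.42 (SE 0.21, adjusted p = 0.0472) between the last pair of times. UGT76B1 changed by -2.07 between them and missed the threshold (adjusted p = 0.0883). Without 1 array the count of calls ran from 0 to 11.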

How the data were processed

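RNA of the 12 arrays of 52 and 4 h was labelled with biotin and read on ATH1 arrays, 3 arrays in each of 4 groups. The values the authors deposited are linear intensity in a single table, MAS5 signal per the submitters' processing notes, with the version not given in the sources used here. MAS5 subtracts background, so dim probe sets are noisy on a log scale. The 2% trimmed mean of each array was 100.009 to 100.011, which shows scaling to 1 level. Columns of no known sample numbered 0.

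From these intensities log2 values were taken with no offset and fitted with limma 3.58.1 in R 4.3.3 (lmFit, and eBayes with trend), with 4 group means and the replicate number. The contrasts were 52 minus 4 h averaged over treatments, within SA plants, within silwet plants, and SA minus silwet plants. The contrast of 52 minus 28 h came from a fit of all 18 arrays. All adjusted p values come from limma with the Benjamini-Hochberg correction, over 15212 tested probe sets. Where a gene was dim on all 6 arrays of a time, the fold is a bound: the brighter time's mean against the higher of the filter level and the signal, per array. The labels call the arrays of a group biological replicates. The p values rest on the spread left between these arrays after the effect of the replicate number is taken out, pooled over groups.

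The platform annotation lists 14016 of 22810 probe sets, 13513 of them with 1 gene. The 503 with several genes were left unnamed. Besides 64 control probe sets, 8730 had no gene. The TAIR10.1 gene table gave symbols and matched 13436. Coordinates were left out, as the array's build is not given in the sources used here. In 31 gene lists, 273 of 1599 entries matched a named probe set, and 33 symbol families and 15 more families drawn up after the values had been seen were added. The members and lists were chosen with earlier results of these data known, and their counts are descriptions.

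Genes named by rule were, each way, the 15 called probe sets of largest change that had 1 gene, a signal that was not dim on any array of the brighter time and 1 sign in all 6 pairs. For the difference between treatments and for 52 against 28 h they were up to 5 each way, and up to 2 unnamed probe sets each way and any list member could be added. ATERDJ3B stands beside the difference genes after its values were seen. On simulated data of 15212 genes with 200 changed, the fit recovered 79% of changes of 1 and 90% of changes of 2 on the log2 scale, and called 6 unchanged genes. With no replicate block it recovered 53% and 77%, and called 2 unchanged genes. The simulated noise and replicate effects came from the fit with the block, and far fewer genes were changed than were called in the data. These rates therefore check the code and do not give the power or error rate in the data. Plots used Python 3.11.15 with matplotlib 3.10.9.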

Additional observations from a re-analysis of the deposited data

Results flagged for a closer look

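In 68 sets of 6 arrays, 3 held an array far from the others, about as many as chance gives at the 95% level used. At 4 h AT3G17640 had 1.63 on SA 4 h replicate 1, against 10.5 to 27.7 on the other arrays. At 52 h AT5G51440 had 1.31 on SA 52 h replicate 3, against 7.56 to 15.6. At 4 h the unnamed 263378_at had 4.5 on silwet 4 h replicate 1, against 17.8 to 31.

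The change from 4 to 52 h differed between SA and silwet plants, by limma's test of that difference, in 9 named genes. The SA change minus the silwet change was 1.75 in AT5G67150, 1.61 in MSRB5, 1.55 in AT1G78020 and 1.17 in AT2G43530. It was -5.02 in AT3G28510, -3.39 in UGT76B1, -3.05 in AT5G03350, -2.31 in AT4G32870 and -2.24 in AT3G29240. AT3G28510 and UGT76B1 were dim on most arrays of 52 h, so the sizes of their differences are imprecise. None of the 9 passed with no replicate block or without SA 4 h replicate 2.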

How the results depend on the processing

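Over both treatments 5043 probe sets were called. The replicate numbers came from the labels. Of 18 pairs of same-numbered arrays, 16 deviated together from their group means (correlation over 0.1, over all pairs from 0.0744 to 0.71). Arrays of different numbers were not compared in this way, so what same-numbered arrays shared was not tested. With no replicate block the counts were 3035 over both treatments (all of them among the 5043), 2445 in SA plants, 317 in silwet plants, 3 for the difference between treatments and 1 for 52 against 28 h. A 2-fold requirement left 1459 over both treatments and 2320 in SA plants. Array weights gave 2857 in silwet plants, 489 for the difference and 63 for 52 against 28 h. The difference was called in 126 probe sets with all 18 arrays in the fit, 64 with an offset, 67 with a filter at the 60th percentile, 7 with no intensity trend and 21 with the 3' over 5' ratio as a covariate. With that covariate 3643 were called over both treatments, 3233 in SA plants and 760 in silwet plants. For 52 against 28 h the count was 1 with quantile normalization or no filter, and 0 with no intensity trend or that covariate. Leaving out 1 array gave 3864 to 5183 over both treatments, 2779 to 5008 in SA plants, 416 to 1176 in silwet plants, 1 to 54 for the difference and 0 to 11 for 52 against 28 h. Leaving out replicate 2 or 3 in all groups gave 2315 and 2732 over both treatments, 1519 and 2378 in SA plants, 251 and 272 in silwet plants, and 0 and 20 for the difference (9 without replicate 1), with 0 in either case for 52 against 28 h. The cause of these shifts was not tested. Of 220 called genes followed by name, 116 were called under every setting run, 64 lost the call with no replicate block, 48 without some array, and 0 changed sign while called. Signal near background limits the folds of dim genes.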

Other observations

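Subtilases, RALF-like peptides, tetraspanins and SWEET transporters were grouped after their values had been seen. Their counts stand against 17.9% higher and 15.3% lower over all probe sets. Among 4 subtilases, serine proteases of the secretory path, SBT1.3 (0.53) was higher and SBT3.5 (-2.18) and SBT3.3 (-1.46) were lower at 52 h. SBTI1.1 was higher too, but lost its call with no replicate block and without some single array. RALF-like signalling peptides had 2 of 5 higher, RALFL24 (0.96) and RALFL34 (0.82), and 2 lower, RALFL32 (-0.73) and RALFL31 (-0.63). The 2 lower ones lost their calls with no replicate block and without some single array. Tetraspanins, membrane proteins of vesicles, had 3 of 7 higher and 1 lower, TET8, with 393 to 801 at 52 h and 810.5 to 2011 at 4 h (-1.22). TET3 (0.41) and TET5 (0.62), among the higher ones, were lost with no replicate block and without some single array. Of 9 SWEET sugar transporters, SWEET13 (1.04) was higher and SWEET1 (-0.60) lower, shares below those of all probe sets, and neither passed with no replicate block.

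Pectin enzymes had 2 of 3 tested members lower, ATPMEPCRB (-1.65) and PME61 (-0.78). The histone gene HTB1 (0.73) was higher without overlap, and HTB11 (-0.61), HTB4 (-0.08) and HTB2 (0.33) did not pass. VTC4, an enzyme of ascorbate synthesis, changed by 0.69, and GR1, a glutathione reductase, by -0.47, which did not pass with no replicate block. NRT2.5, a nitrate transporter, changed by -1.04 and was not called with no replicate block. None of 3 genes of phosphate, iron and metals passed.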
